A study of Danio rerio with 18 samples.

Results

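In the annotation of the zebrafish genome 2 genes carry the symbol HRAS, and they were followed here through 15 ventricle libraries. They are ENSDARG00000098497 and ENSDARG00000005651, 2 of the 32520 gene identifiers in the deposited count tables, and they were chosen by identifier, not by their values. HRAS is a small GTPase of the Ras family that sits on the inner face of the plasma membrane. It is switched on by exchange factors that load it with GTP and switched off by GTPase-activating proteins, and in its active form it engages RAF kinases, phosphoinositide 3-kinase and Ral exchange factors. A transgenic HRAS was driven in the heart muscle of some of the study's fish, so reads of the transgene could have been counted in either row. The counts do not separate reads of the transgene from reads of the native loci, so no value below can be assigned to the native genes alone.

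The study set oncogene-driven growth of the adult zebrafish heart beside regeneration, in 5 groups of 3 libraries. All fish carried cmcl2:Gal4-ERT2 (the spelling of the labels), a Gal4 activator under a cardiomyocyte promoter that 4-hydroxytamoxifen (4-OHT) switches on. The rapamycin-treated GFP-HRAS group also carried UAS:GFP-HRAS, a fusion of green fluorescent protein and HRAS, and received 4 overnight pulses of 2.5 uM 4-OHT and 0.5 uM rapamycin, which inhibits the growth kinase TOR, in the course of 16 days. The DMSO-treated GFP-HRAS group had the same transgenes and 4-OHT with 0.05% DMSO, the vehicle. The rapamycin-treated and the DMSO-treated RFP groups carried UAS:RFP, a red fluorescent protein, in place of UAS:GFP-HRAS and were treated in the same ways. The ventricles of these 4 groups were not injured. The fifth group, 7 dpci, carried the driver alone, had no drug treatment, and was taken 7 days after cryoinjury, a freezing injury of the ventricle wall. The labels do not say which allele or species the transgenic HRAS comes from, nor whether each library is 1 animal, so p-values measure the spread between libraries, which may be technical.

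Libraries held 15861618 to 20003711 counts. In all 5 groups the ventricle's own markers were abundant, with the 11 cardiomyocyte genes of the marker list summing to at least 27905 CPM (counts scaled to a common library size by the trimmed mean of M values, TMM). A single library stood apart from its group. On the first principal component of the 1000 most variable genes, GFP-HRAS rapamycin replicate 3 lay at -11.9, with the other 2 libraries of that group at 44.5 and 32.8, the GFP-HRAS DMSO libraries at 51.7 to 71.2, the 7 dpci libraries at 23.2 to 28.5, and the 6 RFP libraries at -60.6 to -48.7. Tests of the 2 hras genes that include this group, and of the Ras genes named in it, are given with and without that library. Group means, coefficients of variation and likeness of profiles are given with it only.

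ENSDARG00000098497 was higher in the GFP-HRAS ventricles than in the RFP ventricles. It stood at 8.73, 7.41 and 3.67 CPM in replicates 1 to 3 of GFP-HRAS rapamycin. It stood at 6.21, 8.32 and 7.73 CPM in GFP-HRAS DMSO. The third of the rapamycin libraries, the one that stood apart, had the lowest value of these 6. The gene stood at 3.84, 3.66 and 3.12 CPM at 7 dpci. It stood at 1.53, 1.68 and 3.16 CPM in RFP rapamycin and at 1.57, 1.35 and 1.99 CPM in RFP DMSO. These RFP values rest on only 22 to 42 counts per library.

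From high to low, the group means of ENSDARG00000098497 were 7.42 ± 1.09 CPM in GFP-HRAS DMSO, 6.60 ± 2.63 CPM in GFP-HRAS rapamycin, 3.54 ± 0.375 CPM at 7 dpci, 2.12 ± 0.902 CPM in RFP rapamycin and 1.63 ± 0.325 CPM in RFP DMSO (SD, n = 3 each). Each group overlapped its neighbour in that order. The order of the GFP-HRAS groups turned without GFP-HRAS rapamycin replicate 3, with a log2 fold change of 0.13 for rapamycin over DMSO. GFP-HRAS DMSO was separate from 7 dpci and from both RFP groups. GFP-HRAS rapamycin was separate from both RFP groups, and 7 dpci from RFP DMSO. Separate groups are common here. They were seen for 62.4% of genes between GFP-HRAS DMSO and RFP DMSO, and for 33.1% between GFP-HRAS rapamycin and RFP rapamycin. Between 7 dpci and RFP DMSO the share was 57.7%, and between 7 dpci and GFP-HRAS DMSO 53.5%. It was not counted for the other pairs named here. In RFP DMSO the coefficient of variation was 19.9%, close to the 19.1% that counting error alone gives at this depth. In GFP-HRAS rapamycin it was 39.8%, against 9.31% from counting error. It was highest in RFP rapamycin, at 42.5% against 17.7%.

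**Figure D1:**
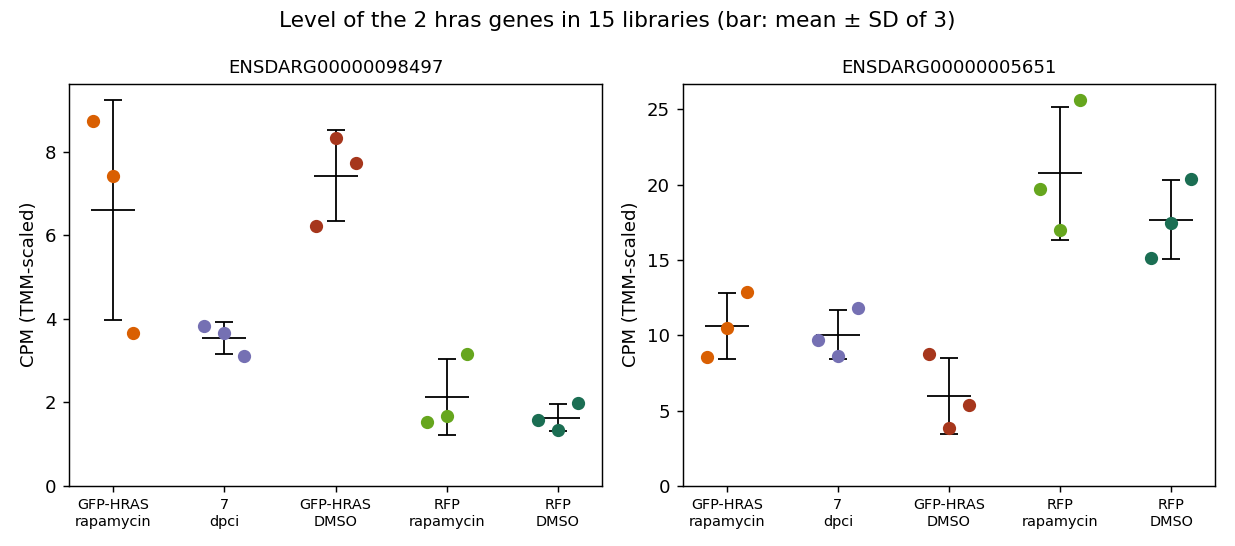
Level of ENSDARG00000098497 (left) and ENSDARG00000005651 (right) in TMM-scaled CPM, 1 point per library, with the mean and SD of 3 libraries per group in black. The 3 GFP-HRAS DMSO libraries lie above the 3 RFP DMSO libraries for the first gene (6.21 to 8.32 against 1.35 to 1.99 CPM) and below them for the second (3.81 to 8.72 against 15.1 to 20.4 CPM).

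ENSDARG00000005651 ran the other way and was lower in the GFP-HRAS ventricles. It stood at 8.53, 10.5 and 12.9 CPM in replicates 1 to 3 of GFP-HRAS rapamycin. It stood at 8.72, 3.81 and 5.34 CPM in GFP-HRAS DMSO. These 2 groups overlapped through the single high DMSO library, replicate 1. At 7 dpci the gene stood at 9.68, 8.62 and 11.8 CPM. It stood at 19.7, 17.0 and 25.6 CPM in RFP rapamycin and at 15.1, 17.5 and 20.4 CPM in RFP DMSO. All 6 RFP libraries were above all 9 others, and no library had fewer than 93 counts of this gene. The first principal component splits the same libraries, and the share of all genes that do so was not counted.

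The order of its group means was 20.8 ± 4.41 CPM in RFP rapamycin, 17.7 ± 2.64 CPM in RFP DMSO, 10.6 ± 2.19 CPM in GFP-HRAS rapamycin, 10.04 ± 1.63 CPM at 7 dpci and 5.96 ± 2.51 CPM in GFP-HRAS DMSO (SD, n = 3 each). The RFP groups overlapped each other, and the GFP-HRAS and 7 dpci groups overlapped one another. Its coefficient of variation was 42.2% in GFP-HRAS DMSO, against 8.47% from counting error. Within each GFP-HRAS group the order of the 3 libraries by ENSDARG00000005651 was the reverse of their order by ENSDARG00000098497, a description of 3 libraries a group that carries no test.

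Under DMSO the GFP-HRAS transgene was compared with the RFP transgene, and both genes passed the test, in opposite directions. ENSDARG00000098497 rose by 2.18 ± 0.38 on the log2 scale in GFP-HRAS DMSO over RFP DMSO (SE, adjusted p = 0.00123, edgeR's quasi-likelihood test with Benjamini-Hochberg adjustment), a 4.54-fold difference. The 95% interval of this log2 fold change was 1.35 to 3.02. ENSDARG00000005651 had a log2 fold change of -1.57 ± 0.30 (SE, adjusted p = 0.00196), with a 95% interval of -2.22 to -0.908. In neither gene did the groups overlap. The background of this comparison is large, since 47.5% of the 16044 genes tested were called, 24.9% higher and 22.6% lower. Groups did not overlap for 62.4% of genes. A log2 fold change at least as large in size was seen in 15.4% of genes for ENSDARG00000098497 and in 25.1% for ENSDARG00000005651. Both calls held without each library in turn, with log2 fold changes of 2.05 to 2.34 and of -1.95 to -1.32.

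These are bulk ventricles, in which fewer cells of a type and less RNA per cell cannot be told apart, and the cell type markers moved in the same comparison. The 11 cardiomyocyte markers summed to 27905 to 32943 CPM in GFP-HRAS DMSO and to 47078 to 52828 CPM in RFP DMSO, and 7 of the 10 tested were called lower. None was called higher, but some had higher means in GFP-HRAS DMSO. Among these, nppa averaged 4555 CPM in GFP-HRAS DMSO and 3449 CPM in RFP DMSO. TNNI1 ENSDARG00000052708 averaged 3469 CPM in GFP-HRAS DMSO and 2453 CPM in RFP DMSO. The 12 leukocyte markers summed to 3603 to 5224 CPM in GFP-HRAS DMSO and to 130 to 393 CPM in RFP DMSO, with 8 of 10 tested called higher, while 1 of the 12, an MPEG1 gene, was at 0 in both groups. In GFP-HRAS DMSO most of the mean sum of 4219 CPM came from cd74a and cd74b, at 2812 and 664 CPM. Another MPEG1 gene, ENSDARG00000043093, went the other way, at 20.1 CPM in GFP-HRAS DMSO and 32.8 CPM in RFP DMSO. Of 6 lymphocyte markers, summing to 26.0 to 104 CPM in GFP-HRAS DMSO and 1.27 to 2.68 CPM in RFP DMSO, all 4 tested were called higher, and 2, lck and cd4-1, were at 0 in RFP DMSO. The 6 endothelial and endocardial markers summed to 474 to 521 CPM in GFP-HRAS DMSO and to 1420 to 1650 CPM in RFP DMSO, with 5 of 6 called lower. The 10 fibroblast and matrix markers summed to 2474 to 4628 CPM in GFP-HRAS DMSO and to 732 to 1355 CPM in RFP DMSO, with 8 called higher and 1 lower. The lower one was PDGFRA, which averaged 9.58 CPM in GFP-HRAS DMSO and 52.1 CPM in RFP DMSO. FN1 ENSDARG00000006526 alone averaged 1106 CPM in GFP-HRAS DMSO and 827 CPM in RFP DMSO. Of the erythrocyte markers 2 of 3 tested were called lower, and of the epicardial markers 1 of 4 was called higher. The part of these shifts in the values of either hras gene was not tested.

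Under rapamycin the same contrast of transgenes gave the same signs and smaller fold changes. ENSDARG00000098497 had a log2 fold change of 1.64 ± 0.375 in GFP-HRAS rapamycin over RFP rapamycin (SE, adjusted p = 0.0159), with an interval of 0.823 to 2.47. ENSDARG00000005651 had one of -0.96 ± 0.295 (SE, adjusted p = 0.0436), with an interval of -1.61 to -0.317. In this comparison 18.1% of the 16044 genes were called, 10.4% higher and 7.71% lower, and groups did not overlap for 33.1%, as they did not for either hras gene. Without GFP-HRAS rapamycin replicate 3, the library that stood apart, the values were 1.93 (adjusted p = 0.00264) and -1.13 (adjusted p = 0.0279). The calls are near the threshold: leaving out replicate 1 or 2 of either group ended the call of ENSDARG00000098497, leaving out any library but GFP-HRAS rapamycin replicate 3 ended that of ENSDARG00000005651 (adjusted p of up to 0.0696 and 0.158), and a fit of these 6 libraries alone called neither (0.0707 and 0.0702). Cell type markers moved in this comparison too. Fibroblast and matrix markers summed to 1324 to 3774 CPM in GFP-HRAS rapamycin and to 755 to 936 CPM in RFP rapamycin, with 6 of 10 called higher and 1 lower. Endothelial and endocardial markers summed to 809 to 1126 CPM in GFP-HRAS rapamycin and to 1232 to 1507 CPM in RFP rapamycin, with 3 of 6 called lower. Leukocyte markers summed to 197 to 523 CPM in GFP-HRAS rapamycin and to 166 to 198 CPM in RFP rapamycin, with 3 of 10 tested called higher. Cardiomyocyte markers overlapped, at 51344 to 57898 CPM in GFP-HRAS rapamycin and 47914 to 71601 CPM in RFP rapamycin, with 1 of 10 tested called higher and 1 lower. The part of these shifts in the hras values was not tested.

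Rapamycin itself was compared with the vehicle within each transgene, and no hras gene was called in either. In GFP-HRAS ventricles ENSDARG00000098497 had a log2 fold change of -0.17 ± 0.354 for rapamycin over DMSO (SE, adjusted p = 0.787), with an interval of -0.946 to 0.604. Without GFP-HRAS rapamycin replicate 3 it was 0.13. ENSDARG00000005651 had a log2 fold change of 0.83 ± 0.297 (SE, adjusted p = 0.088, unadjusted p = 0.0167), with an interval of 0.181 to 1.48. Without GFP-HRAS rapamycin replicate 3 it was 0.68 (adjusted p = 0.232). It was called without GFP-HRAS DMSO replicate 1, the high DMSO library, with a log2 fold change of 1.22 (adjusted p = 0.0262). Of all genes tested, 12.1% were called in this comparison. Scaling by library totals in place of TMM shifted the median log2 fold change of all genes by -0.45 here. ENSDARG00000098497 then stood at 8.89, 7.00 and 3.18 CPM in GFP-HRAS rapamycin and at 7.48, 11.0 and 10.4 CPM in GFP-HRAS DMSO. ENSDARG00000005651 then stood at 8.68, 9.90 and 11.2 CPM in GFP-HRAS rapamycin and at 10.5, 5.02 and 7.22 CPM in GFP-HRAS DMSO. Cardiomyocyte markers summed to 51344 to 57898 CPM in GFP-HRAS rapamycin and 27905 to 32943 CPM in GFP-HRAS DMSO, with 5 of 10 tested called higher. Endothelial and endocardial markers were called higher in 3 of 6. Leukocyte markers were called lower in 7 of 10 tested and lymphocyte markers in 4 of 4. Of 10 fibroblast and matrix markers 0 were called. The part of these shifts in the values of the hras genes was not tested.

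In RFP ventricles the log2 fold change for rapamycin over DMSO was 0.37 ± 0.384 for ENSDARG00000098497 and 0.23 ± 0.291 for ENSDARG00000005651 (SE, adjusted p = 1 each). Their intervals ran from -0.474 to 1.21 and from -0.407 to 0.870. edgeR called 0% of genes there, with 787 of the 16044 tested at an unadjusted p under 0.05 and 27 called by DESeq2. The difference between the 2 rapamycin effects, GFP-HRAS minus RFP, was -0.54 ± 0.522 for ENSDARG00000098497 (SE, adjusted p = 0.676) and 0.60 ± 0.415 for ENSDARG00000005651 (SE, adjusted p = 0.541). These differences were -0.24 and 0.45 without GFP-HRAS rapamycin replicate 3, and over the 12 fits that each left out 1 library they ran from -0.79 to -0.14 and from 0.36 to 0.98, none called. Of all genes, 0.0499% passed that test.

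**Figure D2:**
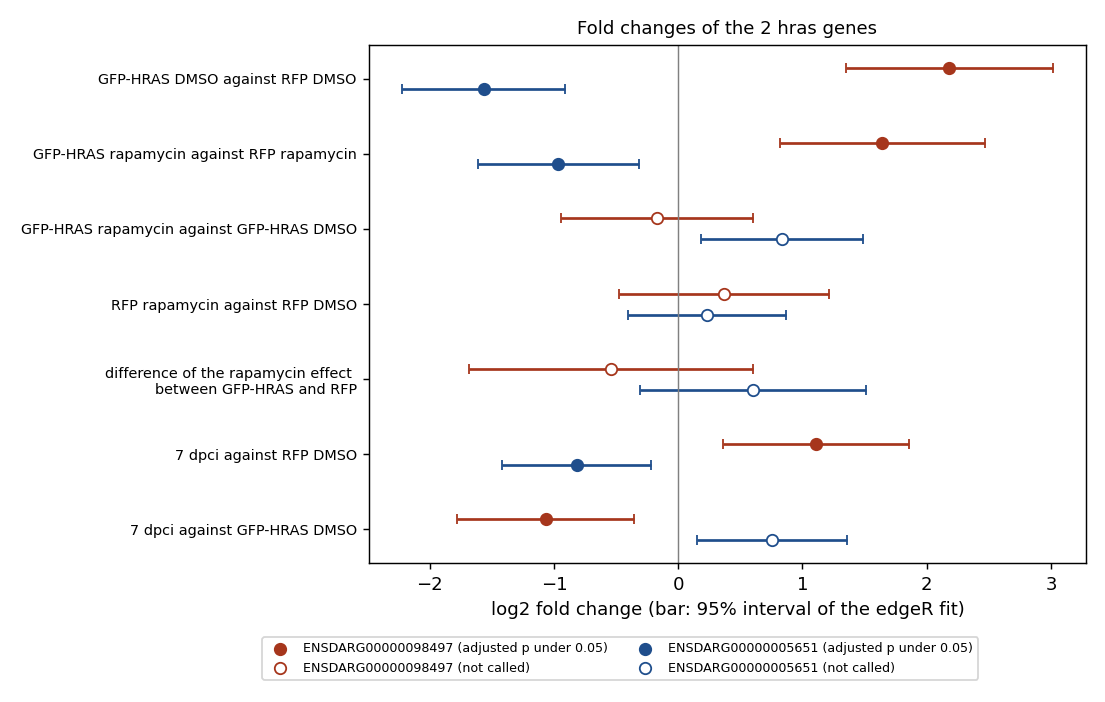
Log2 fold changes of the 2 hras genes in the 7 comparisons, with 95% intervals of the edgeR fit, filled where the adjusted p was under 0.05. The first gene has positive and the second negative values for GFP-HRAS over RFP under either treatment (2.18 and -1.57 under DMSO) and for 7 dpci over RFP DMSO (1.11 and -0.82), and the signs are turned round for 7 dpci over GFP-HRAS DMSO (-1.07 and 0.75).

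The injured ventricles, whose labels name no HRAS transgene, had means between those of the GFP-HRAS DMSO and RFP DMSO groups for both genes. Against RFP DMSO, ENSDARG00000098497 had a log2 fold change of 1.11 ± 0.347 at 7 dpci (SE, adjusted p = 0.024) and ENSDARG00000005651 one of -0.82 ± 0.278 (SE, adjusted p = 0.0348). For neither did the groups overlap, as for 57.7% of the 16421 genes tested, and 36.4% of genes were called, 18.8% higher and 17.7% lower. The labels of RFP DMSO name no HRAS transgene either. The part of transgene reads in the values of the GFP-HRAS groups was not tested. Against GFP-HRAS DMSO, ENSDARG00000098497 had a log2 fold change of -1.07 ± 0.33 at 7 dpci (SE, adjusted p = 0.0285), with separate groups, as for 53.5% of genes, and 28.8% of genes were called, 13.3% higher and 15.5% lower. ENSDARG00000005651 had 0.75 ± 0.28 (SE, adjusted p = 0.0587), and its groups overlapped. The 7 dpci group differed from the others not only by injury but also in count table, transgene, vehicle and 4-OHT, and these cannot be told apart.

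The calls against 7 dpci are near the threshold, and several rest on single libraries. Against RFP DMSO, the adjusted p over the 6 fits that each left out 1 library ran from 0.0373 to 0.0914 for ENSDARG00000098497, which lost its call without 7 dpci replicate 1 or 2 or RFP DMSO replicate 1 or 2. It ran from 0.0368 to 0.120 for ENSDARG00000005651, whose call was lost without 7 dpci replicate 1 or 2 or RFP DMSO replicate 2 or 3. Against GFP-HRAS DMSO it ran from 0.0398 to 0.101 for ENSDARG00000098497, which kept its call only without GFP-HRAS DMSO replicate 1. ENSDARG00000005651 was called there without GFP-HRAS DMSO replicate 1, with a log2 fold change of 1.18 (adjusted p = 0.00753). Beside these values, fibroblast and matrix markers summed to 9863 to 11184 CPM at 7 dpci, above every other group, cardiomyocyte markers to 55300 to 55597 CPM and leukocyte markers to 1314 to 1358 CPM. Of those tested against RFP DMSO, 9 of 10 fibroblast and matrix markers were called higher and 1 lower, 8 of 11 leukocyte markers higher, and 2 of 10 cardiomyocyte markers higher and 3 lower. Endothelial and endocardial markers summed to 851 to 948 CPM at 7 dpci and to 1420 to 1650 CPM in RFP DMSO, with 4 of 6 called lower. Erythrocyte markers summed to 297 to 601 CPM at 7 dpci and to 55.0 to 106 CPM in RFP DMSO, with all 3 tested called higher, and epicardial markers to 105 to 136 CPM at 7 dpci and 24.3 to 42.4 CPM in RFP DMSO, with all 4 called higher. Against GFP-HRAS DMSO, 6 of 10 cardiomyocyte markers were called higher at 7 dpci and 2 lower. Leukocyte markers were called lower in 5 of 11 and lymphocyte markers in 3 of 4. Called higher were 4 of 6 endothelial and endocardial, 5 of 10 fibroblast and matrix, 3 of 3 erythrocyte and 3 of 4 epicardial markers. The part of these markers in the hras values was not tested.

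The 2 genes can also be set against each other within a library, as the share of their joint counts that fell on ENSDARG00000098497. This needs no scaling between libraries, but the counts are not per gene length, so a share describes a change between groups and not which gene is the more abundant. The share was 50.6%, 41.4% and 22.1% in replicates 1 to 3 of GFP-HRAS rapamycin, 41.6%, 68.6% and 59.1% in GFP-HRAS DMSO, and 28.4%, 29.8% and 20.9% at 7 dpci. It was 7.23%, 8.98% and 11.0% in RFP rapamycin and 9.38%, 7.14% and 8.87% in RFP DMSO. All 9 GFP-HRAS and 7 dpci libraries were above all 6 RFP libraries. The first principal component splits them in the same way, and how common this is for other pairs of genes was not counted. Exact (Clopper-Pearson) 95% binomial intervals, which cover counting error only, ran from 17.3 to 27.6% in the lowest GFP-HRAS library and from 8.04 to 14.6% in the highest RFP library.

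The mean share was 56.4 ± 13.7% in GFP-HRAS DMSO and 8.46 ± 1.17% in RFP DMSO, a difference of 48.0 percentage points (SD, n = 3 each, exact two-sided permutation test p = 0.1). It was 38.0 ± 14.5% in GFP-HRAS rapamycin and 9.07 ± 1.88% in RFP rapamycin, a difference of 29.0 points (exact permutation p = 0.1). At 7 dpci it was 26.4 ± 4.80%, which was 17.9 points above RFP DMSO and 30.1 points below GFP-HRAS DMSO (exact permutation p = 0.1 each). With 3 libraries against 3 no exact test can go below 0.1, and over the 6 comparisons of the share these p-values adjust to 0.15. The share was 18.4 points lower in GFP-HRAS rapamycin than in GFP-HRAS DMSO (exact permutation p = 0.2, adjusted 0.24) and 0.607 points higher in RFP rapamycin than in RFP DMSO (exact permutation p = 0.7, adjusted 0.7), with overlapping groups in both. Without GFP-HRAS rapamycin replicate 3 the share was 36.9 points above RFP rapamycin (exact permutation p = 0.1) and 10.4 points below GFP-HRAS DMSO (exact permutation p = 0.4). Over the 6 comparisons that each left out 1 library, the difference from GFP-HRAS DMSO ran from -25.8 points, without GFP-HRAS DMSO replicate 1, to -10.4 points.

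**Figure D3:**
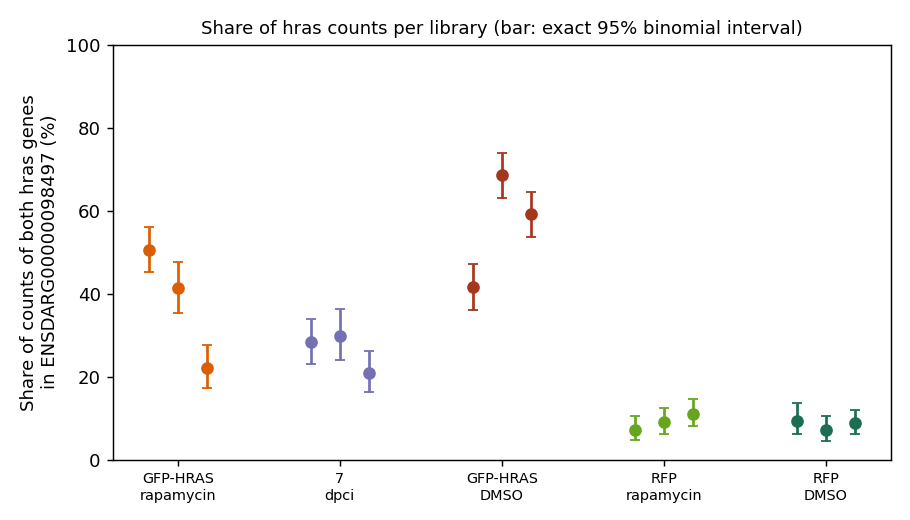
Share of the joint counts of both hras genes that fell on ENSDARG00000098497, in percent, 1 point per library with its exact 95% binomial interval. GFP-HRAS libraries lie between 22.1 and 68.6%, 7 dpci libraries between 20.9 and 29.8%, and RFP libraries between 7.14 and 11.0%.

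The joint level of both genes was looked at after their values had been seen. The summed level was not higher with the transgene: it was 13.4 ± 1.43 CPM in GFP-HRAS DMSO and 19.3 ± 2.87 CPM in RFP DMSO, and 17.2 ± 0.660 CPM in GFP-HRAS rapamycin and 22.9 ± 5.26 CPM in RFP rapamycin (SD, n = 3 each). Under TMM scaling the groups did not overlap in either pair (exact permutation p = 0.1 each, adjusted 0.15 over 6 comparisons). Under scaling by library totals they overlapped in both. The sum was then 15.98 to 17.99 CPM in GFP-HRAS DMSO and 15.03 to 21.43 CPM in RFP DMSO, a difference of -0.867 CPM (exact permutation p = 0.8) in place of -5.93 CPM. It was 14.4 to 17.6 CPM in GFP-HRAS rapamycin and 17.2 to 22.6 CPM in RFP rapamycin, a difference of -3.33 CPM (exact permutation p = 0.2) in place of -5.65 CPM. The difference under rapamycin was -2.70 CPM without RFP rapamycin replicate 3 and -5.31 CPM without GFP-HRAS rapamycin replicate 3, by TMM. The sum was 13.6 ± 1.32 CPM at 7 dpci, a difference of -5.73 CPM from RFP DMSO (exact permutation p = 0.1) and of 0.202 CPM from GFP-HRAS DMSO (exact permutation p = 0.7). The sum was 3.86 CPM higher in GFP-HRAS rapamycin than in GFP-HRAS DMSO under TMM scaling (exact permutation p = 0.1), but 0.938 CPM lower under scaling by library totals, and the sum at 7 dpci was then 3.43 CPM below GFP-HRAS DMSO and 4.30 CPM below RFP DMSO. The TMM difference between the GFP-HRAS groups was 4.19 CPM without GFP-HRAS rapamycin replicate 3.

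The remaining Ras genes were described from a list of 75 names in 5 roles, which matched 75 genes, 67 of them tested. In GFP-HRAS DMSO over RFP DMSO, 21 rose, 12 fell and 34 were not called, which is 49.3% called beside 47.5% of all genes. The median log2 fold change of the list was 0.19, against 0.02 over all genes. Scaling by library totals in place of TMM shifted the median of all genes by 0.46 in this comparison, and changes are given relative to the TMM scale. The split of the list was then 30 higher and 4 lower, beside 6084 higher and 1812 lower over all genes. Of all called genes 77.1% were higher there, against 52.4% by TMM.

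Among the other members of the Ras family itself, 7 of 14 rose and none fell, with a median log2 fold change of 0.78. Of all genes tested in this comparison, 24.9% were called higher and 22.6% lower, so that calls in both directions came to 47.5%. RIT1, a Ras-related GTPase, stood at 19.96, 24.5 and 26.0 CPM in GFP-HRAS DMSO and at 6.14, 7.40 and 9.05 CPM in RFP DMSO, a log2 fold change of 1.65 ± 0.348 (SE, adjusted p = 0.00327). The MRAS gene ENSDARG00000062865, whose human product forms a phosphatase complex with SHOC2 that acts on RAF, rose by 1.33 ± 0.176 (SE, adjusted p = 0.00039). The rap1b gene, encoding a GTPase known for integrin-mediated adhesion, stood at 242, 329 and 377 CPM in GFP-HRAS DMSO and at 140, 132 and 134 CPM in RFP DMSO, a log2 fold change of 1.23 ± 0.25 (SE, adjusted p = 0.00267). RRAS, another regulator of adhesion, rose by 1.06 ± 0.24 (SE, adjusted p = 0.00457).

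The kras gene, one of the classical Ras genes beside hras and nras, stood at 19.5, 22.9 and 19.7 CPM in GFP-HRAS DMSO and at 14.9, 7.95 and 10.3 CPM in RFP DMSO. Its log2 fold change was 0.91 ± 0.276 (SE, adjusted p = 0.019). NRAS, the third classical gene, averaged 22.5 CPM in GFP-HRAS DMSO and 17.5 CPM in RFP DMSO, a log2 fold change of 0.37 ± 0.178 that was not called (SE, adjusted p = 0.11). The RALB genes, GTPases that act below Ras through Ral exchange factors, rose by 0.98 ± 0.359 (RALB, SE, adjusted p = 0.0418) and 0.66 ± 0.191 (ralbb, SE, adjusted p = 0.0153). The calls of kras, RALB and ralbb are less firm, since kras and ralbb lost theirs when GFP-HRAS DMSO replicate 2, or either of RFP DMSO replicates 2 and 3, was left out (adjusted p of 0.0533 to 0.0806), and RALB lost it without any 1 of these or of the other 2 GFP-HRAS DMSO libraries (0.0779 to 0.150). The other uncalled members had log2 fold changes of 1.07 (rap1ab, under 1 CPM in both groups), 0.21 (RRAS2), 0.03 (ralaa), -0.03 (rap1aa), -0.10 (RALA) and -0.23 (MRAS ENSDARG00000075285). The signs of MRAS ENSDARG00000075285, rap1aa and RALA turned under library totals.

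The counts in the other roles stand beside the same 24.9% of all genes called higher and 22.6% lower. Of the exchange factors and adaptors, 3 of 12 tested rose and 3 fell. SOS1, the exchange factor recruited by receptor tyrosine kinases, stood at 77.9, 69.4 and 65.3 CPM in GFP-HRAS DMSO and at 136, 219 and 171 CPM in RFP DMSO, a log2 fold change of -1.30 ± 0.264 (SE, adjusted p = 0.00264). RASGRP2 (ENSDARG00000099092), a calcium-responsive exchange factor known in mammalian platelets, fell by 2.84 ± 0.307 on the log2 scale (SE, adjusted p = 0.000191). For the other RASGRP2 gene, ENSDARG00000062328, named here after its values were seen, the groups overlapped. It averaged 3.91 ± 1.17 CPM in GFP-HRAS DMSO and 4.75 ± 1.98 CPM in RFP DMSO (SD, n = 3 each). Of the GTPase-activating proteins and other inhibitors, 6 of 14 rose and 2 fell. Among them rasal3, a GTPase-activating protein known from mouse blood cells, stood at 87.2, 47.6 and 21.5 CPM in GFP-HRAS DMSO and at 12.4, 5.62 and 5.35 CPM in RFP DMSO. Its log2 fold change was 2.75 ± 0.501 (SE, adjusted p = 0.00154). RASA2, also a GTPase-activating protein, rose by 1.31 ± 0.327 (SE, adjusted p = 0.00734). A further one, syngap1b, best known from mammalian synapses, had 11, 131 and 53 counts in GFP-HRAS DMSO and 3, 1 and 0 counts in RFP DMSO. Its fitted log2 fold change of 4.92 ± 1.29 (SE, adjusted p = 0.00937) rests on those few RFP counts.

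Among the effectors 4 of 22 rose and 5 fell, again beside 24.9% higher and 22.6% lower of all genes. PIK3CD, the catalytic subunit of phosphoinositide 3-kinase best known from mammalian leukocytes, averaged 15.8 ± 7.63 CPM in GFP-HRAS DMSO and 1.82 ± 0.109 CPM in RFP DMSO (SD, n = 3 each). Its log2 fold change was 3.11 ± 0.338 (SE, adjusted p = 0.000203). BRAF, a kinase at the head of the ERK cascade, stood at 22.4, 18.5 and 17.7 CPM in GFP-HRAS DMSO and at 43.3, 56.6 and 58.0 CPM in RFP DMSO, a log2 fold change of -1.42 ± 0.324 (SE, adjusted p = 0.00473). KSR1 (ENSDARG00000068714), a scaffold of that cascade, rose by 1.13 ± 0.39 (SE, adjusted p = 0.0329), a call lost without any 1 of 4 libraries (adjusted p of 0.0742 to 0.101). Its level was low, at 2.11 CPM in GFP-HRAS DMSO and 0.963 CPM in RFP DMSO. The other KSR1 gene, ENSDARG00000030933, named here after its values were seen, went the other way. It averaged 28.5 ± 7.21 CPM in GFP-HRAS DMSO and 44.4 ± 4.33 CPM in RFP DMSO (SD, n = 3 each). Of the 5 genes for membrane attachment, 1 rose and 2 fell. ZDHHC9, which with GOLGA7 forms a palmitoyltransferase for HRAS and NRAS in human cells, rose by 1.26 ± 0.319 (SE, adjusted p = 0.00784), while golga7, named here after its values were seen, had a log2 fold change of -0.39 ± 0.139 (SE, adjusted p = 0.0366).

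**Figure D4:**
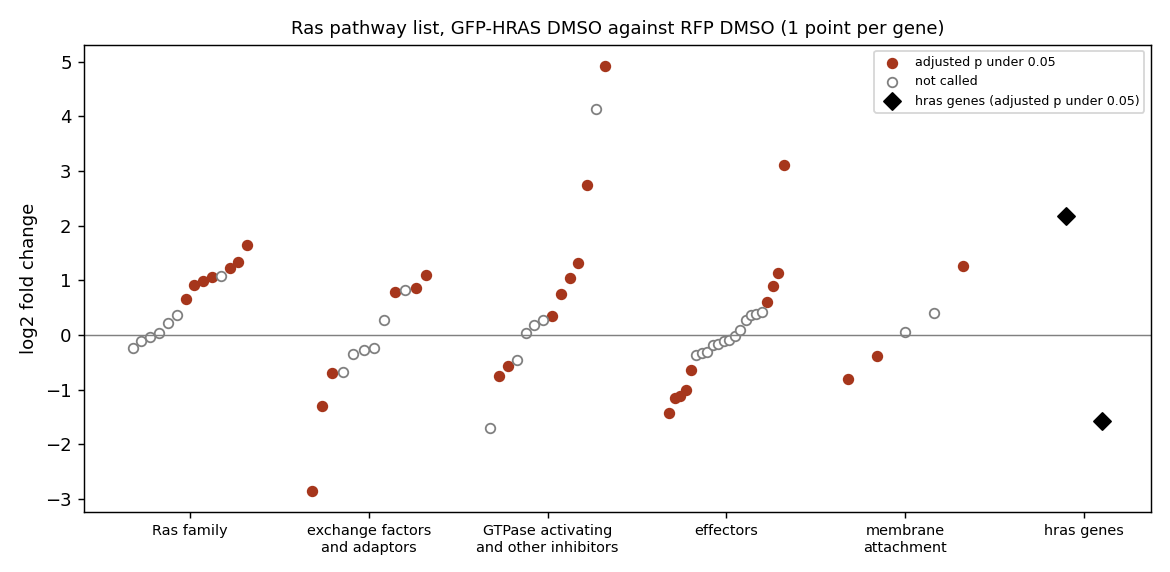
Log2 fold change of GFP-HRAS DMSO over RFP DMSO for the 67 tested genes of the Ras pathway list, grouped by role and ordered by value within each role, filled where called, with the 2 hras genes as diamonds. In the Ras family 7 of 14 points are called, all above 0, while the 2 hras genes lie at 2.18 and -1.57.

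Under rapamycin, 8 of the 67 list genes were higher and 2 lower in GFP-HRAS than in RFP ventricles, 14.9% beside 18.1% of all genes. In the Ras family 4 of 14 were called, all higher. Their log2 fold changes were 1.29 ± 0.347 for RIT1, 0.84 for rap1b, 0.73 for ralbb and 0.64 for MRAS ENSDARG00000062865, with adjusted p of 0.028, 0.0385, 0.0262 and 0.03. They were 1.56, 1.09, 0.72 and 0.67 without GFP-HRAS rapamycin replicate 3, with adjusted p of 0.00541, 0.0034, 0.0279 and 0.0252. Without that library 17 genes of the list and 4864 of all genes were called, against 10 and 2909 with it. None of the 4 Ras family genes was called in a fit of the 6 libraries alone (adjusted p of 0.0925 to 0.107). RIT1 stood at 26.0, 19.4 and 10.9 CPM in GFP-HRAS rapamycin and at 5.31, 6.37 and 11.4 CPM in RFP rapamycin, and these groups overlapped through GFP-HRAS rapamycin replicate 3 and RFP rapamycin replicate 3.

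Rapamycin over DMSO within the GFP-HRAS line called 6 of the 67 genes, 1 higher and 5 lower, 8.96% beside 12.1% of all genes. PIK3CD and rasal3, called higher in GFP-HRAS DMSO over RFP DMSO, were among the lower ones; these comparisons share the GFP-HRAS DMSO libraries. PIK3CD averaged 2.47 ± 0.459 CPM in GFP-HRAS rapamycin and 15.8 ± 7.63 CPM in GFP-HRAS DMSO (SD, n = 3 each), a log2 fold change of -2.67 ± 0.33 (SE, adjusted p = 0.00351). Its rapamycin effect differed from that in RFP ventricles by -3.19 (adjusted p = 0.0485), the single gene of the list to pass that test, a call lost in 9 of the 12 fits without 1 library (adjusted p of up to 0.167). For rasal3, which stood at 6.58, 8.61 and 7.95 CPM in GFP-HRAS rapamycin, the log2 fold change was -2.76 ± 0.501 (SE, adjusted p = 0.00974). In the same comparison the leukocyte markers summed to 197 to 523 CPM in GFP-HRAS rapamycin and to 3603 to 5224 CPM in GFP-HRAS DMSO, with 7 of 10 tested called lower, and their part in these values was not tested.

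The other lower genes were rasgrp4 at -1.27 ± 0.259, an exchange factor known from mammalian mast cells, ptpn11b at -0.95 ± 0.265, a tyrosine phosphatase of receptor signalling, and MRAS ENSDARG00000062865 at -0.65 ± 0.173 (SE, adjusted p of 0.0144, 0.0394 and 0.0343). The gene PTPN11 ENSDARG00000020334, named here after its values were seen, went the other way from ptpn11b and was not called. It averaged 73.9 ± 10.7 CPM in GFP-HRAS rapamycin and 57.8 ± 3.11 CPM in GFP-HRAS DMSO (SD, n = 3 each). GAB1, an adaptor of receptor tyrosine kinases, was higher at 0.85 ± 0.192 (SE, adjusted p = 0.0198). The calls of ptpn11b and MRAS were lost in 5 of the 6 fits without 1 library, that of GAB1 in 2 and that of rasgrp4 in 1. Without GFP-HRAS rapamycin replicate 3 the log2 fold changes for rapamycin over DMSO in GFP-HRAS were -2.52 for PIK3CD, -2.77 for rasal3, -1.28 for rasgrp4 and 0.87 for GAB1, with adjusted p of 0.0133, 0.0324, 0.0396 and 0.0437. ptpn11b and MRAS ENSDARG00000062865 were then not called (-0.73 and -0.61, adjusted p of 0.112 and 0.0931), nor was the difference of the rapamycin effects of PIK3CD (-3.04, adjusted p = 0.0915). In RFP ventricles rapamycin called 0 of the 67 genes with edgeR and 0 with DESeq2. At an unadjusted p under 0.05 by edgeR there were 3 of the 67, beside 787 of all 16044 genes tested. At 7 dpci 8 list genes were higher and 13 lower than in RFP DMSO, 31.3% beside 36.4% of all genes. Under library totals that split was 11 and 6, beside 3517 and 2127 over all genes. Against GFP-HRAS DMSO, 5 were higher and 16 lower at 7 dpci, 31.3% beside 28.8% of all genes. The split under library totals was 1 and 31, beside 1290 and 4617 over all genes.

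The genes whose profile over the 15 libraries lay nearest to each hras gene were found from the mean absolute difference of log2 CPM after centring each gene on its own mean, over 16420 other genes. For ENSDARG00000098497 they were MYO9B at 0.197, jpt1b at 0.198, RIT1 at 0.206, plp2b at 0.207 and cnp at 0.213, beside a median of 0.910 over all genes. MYO9B, an unconventional myosin, averaged 115 CPM in GFP-HRAS rapamycin, 152 CPM in GFP-HRAS DMSO, 67.9 CPM at 7 dpci, 41.5 CPM in RFP rapamycin and 39.6 CPM in RFP DMSO. RIT1 was the third nearest. Among the other Ras family members listed above it had the largest fold change of GFP-HRAS DMSO over RFP DMSO. All of these share the libraries, so the values describe likeness and carry no test.

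For ENSDARG00000005651 the nearest genes were MARK2 at 0.138, MAPRE3 at 0.146, PDE10A at 0.153, CCNI at 0.154 and asb5b at 0.155, beside a median of 0.735. MARK2 encodes a kinase that acts on microtubule-associated proteins, MAPRE3 a protein of growing microtubule ends and PDE10A a cyclic nucleotide phosphodiesterase. PDE10A, the one of lowest level, averaged 14.6 CPM in GFP-HRAS rapamycin, 8.47 CPM in GFP-HRAS DMSO, 13.4 CPM at 7 dpci, 25.3 CPM in RFP rapamycin and 25.0 CPM in RFP DMSO. The 2 hras genes themselves lay 1.34 apart on this measure, more than the median difference of either from the other genes.

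**Figure D5:**
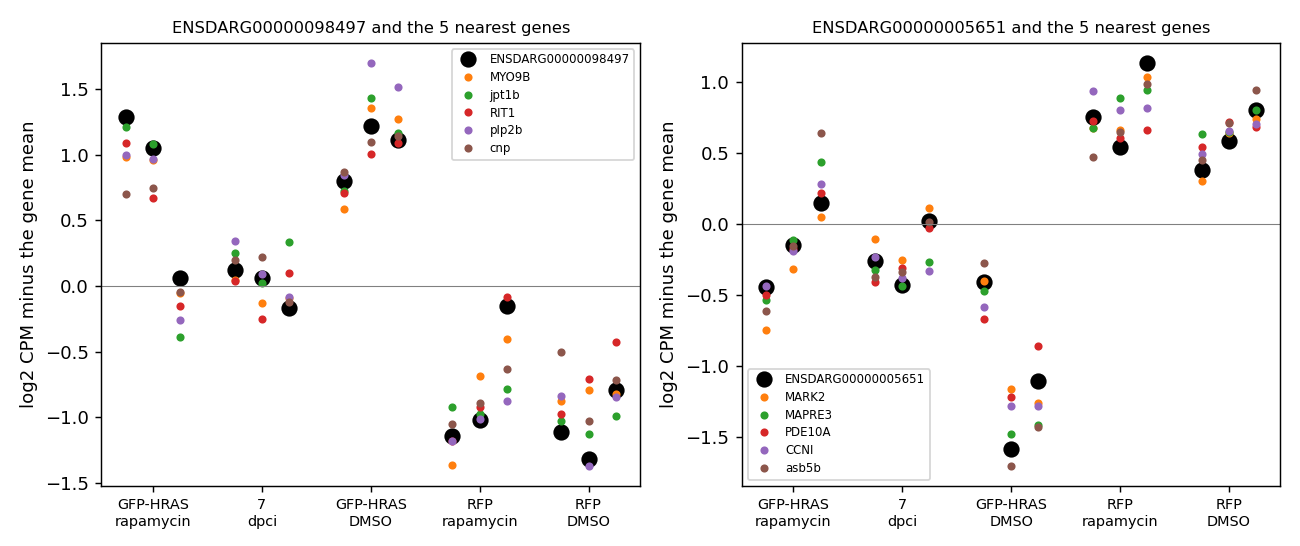
Log2 CPM of each hras gene (black) and of its 5 nearest genes (colours), each minus its own mean over 15 libraries, 1 point per library. The nearest genes stay within a mean of 0.197 to 0.213 of ENSDARG00000098497 and 0.138 to 0.155 of ENSDARG00000005651, whose own values span 2.60 and 2.71.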

How the data were processed

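Per the labels' protocols, ventricle RNA was purified with QIAzol and columns, including a DNase step, and the library kit was CORALL mRNA. The submitters' processing notes name featureCounts 1.6.0, HISAT2 2.1.0, UMI-tools 1.1.1 and the build GRCz11; which annotation release and strand setting were used is not stated there. The authors deposited raw counts per gene in 2 tables, which were joined by identifier. Reads of near-identical genes, and of the HRAS transgene, may be split between rows, which makes values of paralogues uncertain. No gene coordinates, lengths or sequences of GRCz11 were used here. Uninjured samples were not analysed here.

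Tests used edgeR 4.0.16 in R 4.3.3: glmQLFit and glmQLFTest after TMM scaling and the default filter on expression, with Benjamini-Hochberg adjustment over all genes and a threshold of 0.05. The 12 transgenic libraries were fitted together (16044 genes), and all 15 libraries for 7 dpci (16421 genes). Standard errors are the log2 fold change over the root of F. CPM used TMM factors over all 15 libraries, with a prior count of 2 for log2 CPM. Scripts were tested on simulated data. The text names both hras genes, every tested Ras family gene, the 10 and 5 other list genes with the largest called changes in GFP-HRAS DMSO over RFP DMSO and in GFP-HRAS rapamycin over DMSO, and the 5 nearest profiles of each hras gene; 1 gene that this rule names is not reported here. Members, lists and tests were chosen with earlier results of these data known. Alternatives were scaling by library totals, no filter, the replicate number as a block, DESeq2 1.42.0, a fit of the compared groups alone and leaving out each library.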

Additional observations from a re-analysis of the deposited data

Results flagged for a closer look

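PIK3CD (ENSDARG00000003250) was singled out because its response to rapamycin differed between the 2 transgenes by a test of the difference itself. Its log2 fold change for rapamycin over DMSO was -2.67 in GFP-HRAS ventricles and 0.52 in RFP ventricles, a difference of -3.19 ± 0.464 (SE, adjusted p = 0.0485, edgeR). The adjusted p over the fits without 1 library ran from 0.031 to 0.167.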

How the results depend on the processing

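Of 160 alternative values of the tests of the 2 hras genes, 129 kept the direction and the side of the threshold and 31 did not. Both genes stayed called in GFP-HRAS DMSO over RFP DMSO under every alternative. In GFP-HRAS rapamycin over RFP rapamycin, ENSDARG00000005651 was no longer called with no filter (-0.95, adjusted p = 0.0556), with the replicate block (-0.95, adjusted p = 0.0612) or in a fit of the compared groups alone (-0.94), which also lost ENSDARG00000098497 (1.67). At 7 dpci over GFP-HRAS DMSO, DESeq2 called ENSDARG00000005651 (0.73, adjusted p = 0.0424). Deviations of same-numbered libraries of different groups from their group means correlated at r = -0.333 to 0.164, with 2 of 18 pairs over 0.1. Those of differently numbered libraries correlated at -0.346 to 0.341. Deviations within a group of 3 cancel by construction, so these values cannot decide whether the replicate numbers paired the libraries. The block also lost rap1b and ralbb under rapamycin, at 0.83 and 0.73.

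Without each library in turn, log2 fold changes of ENSDARG00000098497 ran from 1.39 to 2.03 in GFP-HRAS rapamycin over RFP rapamycin, from -0.43 to 0.13 for rapamycin over DMSO in GFP-HRAS, from -0.026 to 0.55 for rapamycin over DMSO in RFP, from 0.99 to 1.28 at 7 dpci over RFP DMSO and from -1.13 to -0.93 over GFP-HRAS DMSO. Those of ENSDARG00000005651 ran from -1.13 to -0.79, from 0.59 to 1.22, from 0.05 to 0.36, from -0.95 to -0.70 and from 0.56 to 1.18 in the same comparisons. The difference in share between RFP rapamycin and RFP DMSO ran from -0.356 to 1.53 points, and the summed level at 7 dpci minus GFP-HRAS DMSO from -0.475 to 0.979 CPM. The sums of GFP-HRAS minus RFP ran from -7.23 to -4.39 CPM under DMSO and from -7.76 to -2.70 CPM under rapamycin. Under library totals these 2 shrank to -0.867 and -3.33 CPM with overlapping groups, and the sums reversed for GFP-HRAS rapamycin over DMSO (-0.938 CPM) and 7 dpci over GFP-HRAS DMSO (-3.43 CPM). These sums were chosen after seeing the data.

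The Ras list count for GFP-HRAS rapamycin over DMSO was 6, and 20 under library totals, 15 with DESeq2, 3 in the fit of those groups alone and 2 to 7 without 1 library. For GFP-HRAS rapamycin over RFP rapamycin it was 10, and 16 with DESeq2, 3 in the fit alone and 3 to 17 without 1 library. For 7 dpci over GFP-HRAS DMSO it was 21, and 32 under library totals and 10 to 18 without 1 library. For 7 dpci over RFP DMSO it was 21, and 10 to 22. For the difference of the rapamycin effects it was 1, and 3 with DESeq2 and 0 to 1. In GFP-HRAS DMSO over RFP DMSO uncalled values changed sign: MRAS ENSDARG00000075285 (0.23 under library totals, -1.90 to 0.34 without 1 library), rap1aa (0.43, called, under library totals, 0.0042 with DESeq2, 0.0015 in the fit alone, -0.11 to 0.031 without 1 library), RALA (0.36 under library totals) and ralaa (-0.018 to 0.087 without 1 library).

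Over all genes, counts for GFP-HRAS rapamycin over DMSO were 1947, and 3472 under library totals, 1271 with the block, 3126 with DESeq2, 766 in the fit alone and 533 to 2305 without 1 library. For GFP-HRAS rapamycin over RFP rapamycin they were 2909, and 838 in the fit alone and 881 to 4864, the last without GFP-HRAS rapamycin replicate 3. For the difference of rapamycin effects they were 8, and 125, 26, 44 and 519 under library totals, no filter, the block and DESeq2, and 0 to 81. For 7 dpci over GFP-HRAS DMSO they were 4733, and 2948 to 4296. Under library totals the share of called genes that were higher was 77.1% beside 52.4% in GFP-HRAS DMSO over RFP DMSO, 68.2% beside 57.5% in GFP-HRAS rapamycin over RFP rapamycin, 7.32% beside 48.1% for GFP-HRAS rapamycin over DMSO, 62.3% beside 51.5% at 7 dpci over RFP DMSO and 21.8% beside 46.3% over GFP-HRAS DMSO, with TMM second. The causes were not tested. Depth limits ENSDARG00000098497 most in RFP ventricles. The alternatives of 7 dpci against uninjured were not run, since uninjured samples were not analysed here.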
